A study of Mus musculus with 82 samples.

Results

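The small proline-rich (Sprr) genes were followed through an imiquimod skin inflammation study in mouse ear. They were taken as the 10 rows of the deposited count tables named Sprr1a, Sprr1b, Sprr2b, Sprr2d, Sprr2e, Sprr2f, Sprr2g, Sprr2h, Sprr2i and Sprr3, out of 17 rows with a Sprr name and 56941 genes in all. The list was made from gene names, with earlier results of these data known. Punches of the right ear came from female C57BL/6J Rj mice whose age is not given in the labels. Ears were treated on day 0 to day 7 with a cream of 5% imiquimod, an activator of Toll-like receptor 7 that is used to induce psoriasis-like dermatitis. Some mice also drank IDOR-1117-2520C, a CCR6 inhibitor given in the drinking water and called the drug below. CCR6 is a chemokine receptor found on interleukin 17 producing T cells. In the time course, 52 libraries fell into 9 groups. These were sham ears (labelled vehicle as treatment), imiquimod ears, and imiquimod ears with the drug, each at day 2, 5 and 8, with 6 libraries per group and 4 in sham at day 5. A second experiment on the start day of the drug had 30 libraries, 6 in each of 5 groups, which were sham, imiquimod alone, and imiquimod with the drug started at day 0, day 3 or day 5. All groups except sham received imiquimod, and no group received the drug without it. The label for the time of treatment reads day 8 for sham, imiquimod alone and the drug from day 0, but day 5 for the start at day 3 and day 3 for the start at day 5. Whether this label gives the sampling day or the length of drug treatment is not stated, so a difference in sampling day between these groups cannot be told apart from the drug's start. The protocol text gives a start of the drug before imiquimod, whereas the labels of the start-day groups give the later start days. The labels do not say that each library came from a separate mouse, so p-values measure the spread between these libraries.

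Sprr proteins are precursors of the cornified envelope, the protein shell that replaces the plasma membrane of dying keratinocytes. Transglutaminases cross-link them to one another and to loricrin, involucrin and other proteins of the same gene cluster, the epidermal differentiation complex. In normal interfollicular skin most of them are sparse, and they are known to rise in wounds, psoriasis and other states of epidermal stress. In mouse, Sprr1 and Sprr3 are few genes, while Sprr2 is a run of many similar copies.

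The copies differ in how well reads can be told apart. Of the 31-base words in their transcripts (mouse GENCODE release M21), Sprr1a, Sprr1b and Sprr3 shared 0% with any other gene. Sprr2h shared 2.77%, Sprr2g 3.22%, Sprr2f 7.94% and Sprr2d 10.3%, while Sprr2e shared 21.1%, Sprr2i 22.7% and Sprr2b 32.2%. The last of these shared most with Sprr2a1, a copy outside the list. In the time course the deposited counts of Sprr2b, Sprr2d, Sprr2e and Sprr2i were fractional in 26, 37, 38 and 38 of 52 libraries, so reads had been divided among copies, and those of Sprr1a and Sprr2g were whole in all 52. Values of single Sprr2 copies, above all Sprr2b, Sprr2e and Sprr2i, are therefore uncertain, and the sum over the 7 Sprr2 members and the sum of Sprr1a and Sprr1b are given beside them. The tables identify the members as ENSMUSG00000050359 (Sprr1a), ENSMUSG00000048455 (Sprr1b), ENSMUSG00000050092 (Sprr2b), ENSMUSG00000042212 (Sprr2d), ENSMUSG00000055030 (Sprr2e), ENSMUSG00000050635 (Sprr2f), ENSMUSG00000046203 (Sprr2g), ENSMUSG00000046259 (Sprr2h), ENSMUSG00000042157 (Sprr2i) and ENSMUSG00000045539 (Sprr3).

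Promoter sequence is shown because the members moved together. Of the 10 members, 9 were matched in the RefSeq promoter table (GRCm38.p6), all but Sprr2g. Their starts lie on chromosome 3 between 92316705 and 92485881, a span of 169 kb, with the 6 Sprr2 genes on the plus strand and Sprr1a, Sprr1b and Sprr3 on the minus strand. The letters searched on both strands in windows from 250 bases before to 50 bases after the start began with TGANTCA, the site of AP-1 (Fos and Jun). The second motif was the TATA box, TATAAA. A further motif, the octamer bound by POU factors (ATTTGCAT), was added after the promoters had been read. Capitals mark these matches in the lines below, which run 5′ to 3′ on the gene's strand. For Sprr1b, Sprr2d, Sprr2h and Sprr3 the 250 bases before the start are shown, and for the other matched Sprr2 members 60 bases around the AP-1 match.
Sprr1b (chr3:92438780-92439029, minus strand): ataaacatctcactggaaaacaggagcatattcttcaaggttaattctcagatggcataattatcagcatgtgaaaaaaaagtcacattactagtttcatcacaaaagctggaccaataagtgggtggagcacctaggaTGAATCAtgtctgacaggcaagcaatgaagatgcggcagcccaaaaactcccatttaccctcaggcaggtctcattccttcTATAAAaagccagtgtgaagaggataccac
Sprr2d (chr3:92338890-92339139, plus strand): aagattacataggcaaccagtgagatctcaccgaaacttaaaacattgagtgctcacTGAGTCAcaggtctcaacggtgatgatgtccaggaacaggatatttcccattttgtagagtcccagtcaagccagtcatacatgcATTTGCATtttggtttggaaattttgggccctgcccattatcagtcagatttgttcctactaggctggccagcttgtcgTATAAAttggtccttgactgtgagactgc
Sprr2h (chr3:92385435-92385684, plus strand): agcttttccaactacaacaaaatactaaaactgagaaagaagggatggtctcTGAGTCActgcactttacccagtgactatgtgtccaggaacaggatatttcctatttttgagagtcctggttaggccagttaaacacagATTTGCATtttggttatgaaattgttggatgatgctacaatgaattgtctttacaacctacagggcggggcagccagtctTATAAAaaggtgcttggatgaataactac
Sprr3 (chr3:92458721-92458970, minus strand): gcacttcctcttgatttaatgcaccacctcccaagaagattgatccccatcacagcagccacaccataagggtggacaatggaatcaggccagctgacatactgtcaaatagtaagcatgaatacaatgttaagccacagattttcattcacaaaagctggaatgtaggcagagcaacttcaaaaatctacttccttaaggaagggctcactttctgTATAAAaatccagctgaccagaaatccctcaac
Sprr2b (chr3:92316490-92316549, plus strand): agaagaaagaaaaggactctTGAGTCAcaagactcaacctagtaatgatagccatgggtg
Sprr2e (chr3:92351930-92351989, plus strand): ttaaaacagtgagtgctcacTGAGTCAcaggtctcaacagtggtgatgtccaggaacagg
Sprr2f (chr3:92364970-92365029, plus strand): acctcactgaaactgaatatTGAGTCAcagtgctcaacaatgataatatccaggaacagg
Sprr2i (chr3:92407778-92407837, plus strand): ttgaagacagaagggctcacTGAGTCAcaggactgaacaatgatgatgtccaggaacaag

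The AP-1 letters stood in 8 of the 9 member windows and in 7.81% of 32851 mouse promoters of the same length. Counted from the start, they began at -198 to -193 in all 6 Sprr2 windows and at -111, as TGAATCA, in Sprr1b. Sprr1a, not shown, held TGAGTCA beginning at -146 and at -116. The TATA letters stood in 9 of 9 windows against 13.6% of all promoters, beginning at -29 in all 6 Sprr2 windows. The octamer stood in all 6 Sprr2 windows, beginning at -112 to -108, and in 1.74% of all promoters, and it was in none of the windows of Sprr1a, Sprr1b and Sprr3. The windows listed for Sprr2a1, Sprr2a2 and Sprr2a3, copies outside the list, held none of these 3 motifs. With imiquimod at day 5 these copies rose by 9.02 ± 0.73, 9.59 ± 0.95 and 9.61 ± 0.92 on the log2 scale. The window of Sprr2k, also outside the list, held all 3. Sprr2k had 0 counts in sham ears and 870 counts in imiquimod ears at day 5. Any part of the motifs in these changes was not tested. STAT (TTCNNNGAA) and C/EBP (TTGCNNAA) letters stood in 1 window each, both in Sprr2i, against 8.30% and 10.8% of promoters. ETS letters (AGGAAG) stood in 2 (35.4%), the NF-kB motif in 0 (1.63%) and KLF letters (GGGNGTG) in 0 (29.2%). Neighbouring copies share sequence, so the windows are not independent, and a match is a description of letters and not of binding.

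Libraries held 13.1 to 35.4 M counts (time course) and 24.1 to 35.5 M counts (start-day experiment). Levels are counts per 1000000 counts (CPM), scaled within each experiment, so values of the experiments are not compared as levels. Of the 10 members, 9 passed the filter on low counts in both experiments, among 18780 and 18434 tested genes, and Sprr3 did not. Log2 fold changes with standard errors and Benjamini-Hochberg adjusted p-values over all tested genes come from edgeR's quasi-likelihood test (two-sided, 6 libraries a group, or 4 for sham at day 5), and a gene is called at an adjusted p under 0.05. Replicates 9 and 11 of the imiquimod group at day 2 were known from earlier results of these data to be high in inflammatory genes. Their Sprr2 sums were 182 and 451 CPM, replicate 8 reached 175 CPM, and the other 3 libraries lay between 60.3 and 69.7 CPM. Basal keratinocyte markers (Krt5, Krt14 and 7 others) were present in every group, with summed levels of 13350 CPM or more, and hair shaft keratins stayed at or below 1.45 CPM. In whole-tissue RNA, fewer cells of a type and less RNA per cell cannot be told apart.

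Sprr1a and Sprr1b, the SPRR1 (cornifin) envelope precursors, rose with imiquimod at each day, and Sprr1b rose far more. Sprr1a already had 24.2 to 52.7 CPM (median 28.04) in sham ears at day 2, against 101 to 284 CPM (median 174) in imiquimod ears. At day 5 the sham libraries held 28.5 to 44.9 CPM (median 34.98) and the imiquimod libraries 353 to 664 CPM (median 533). At day 8 the ranges were 33.01 to 67.7 CPM and 212 to 491 CPM (medians 44.8 and 283). All imiquimod libraries lay above all sham libraries of their day. The log2 fold change of Sprr1a was 2.50 ± 0.26 at day 2, 3.86 ± 0.32 at day 5 and 2.75 ± 0.26 at day 8, with adjusted p at or below 4.6e-11 (edgeR). Sprr1b was near the bottom of the scale in sham ears, at 1.83 to 20.999 CPM (median 3.20) at day 2 and 1.63 to 5.03 CPM (median 3.86) at day 5. In imiquimod ears it reached 161 to 470.3 CPM (median 246) at day 2, 690.3 to 1202 CPM (median 988) at day 5 and 633 to 1079.8 CPM (median 746) at day 8. Again no imiquimod library overlapped a sham library. Its log2 fold changes were 5.10 ± 0.42, 8.09 ± 0.58 and 7.29 ± 0.46 in the same order. The ratio of means at day 5 was 14.5-fold for Sprr1a and 270.4-fold for Sprr1b. Sprr1a was, in the start-day experiment, 29.2 to 49.8 CPM in sham and 593 to 851 CPM in imiquimod ears, a change of 4.24 ± 0.17, and Sprr1b was 2.24 to 9.33 CPM and 1147 to 1572 CPM, a change of 8.09 ± 0.24.

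The Sprr2 members, envelope precursors encoded by the run of copies between Sprr2b and Sprr2i, were close to absent in sham ears and were called higher in every imiquimod group. Their summed level in sham ears was 0.572 to 5.40 CPM (median 2.10) at day 2, 0.872 to 2.01 CPM (median 1.16) at day 5 and 1.54 to 5.12 CPM (median 2.01) at day 8. In imiquimod ears the sum was 60.3 to 451 CPM (median 122) at day 2, 769.9 to 1424 CPM (median 1296) at day 5 and 658 to 843 CPM (median 719) at day 8. Every imiquimod library stood above every sham library, and the ratio of means was 63.4-fold, 928-fold and 297-fold. The log2 fold change of the sum was 6.02 ± 0.55, 9.86 ± 0.76 and 8.24 ± 0.58 (adjusted p at or below 1e-12, edgeR). With the separate libraries of the start-day experiment, the sum was 1.28 to 2.59 CPM (median 1.58) in sham and 1667 to 2341 CPM (median 2136) in imiquimod ears, a log2 fold change of 10.16 ± 0.28. Counted over single genes, 9 of 9 tested members were called higher at day 2, where 29.2% of all tested genes were. The count was 9 of 9 at day 5 (34.6% of all genes), 9 of 9 at day 8 (34.5%) and 9 of 9 in the start-day experiment (38.1%). In each of these 4 comparisons all imiquimod libraries lay above all sham libraries for all 9. The share of all tested genes without overlap was not counted, here or for the later counts of members without overlap.

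**Figure D1:**
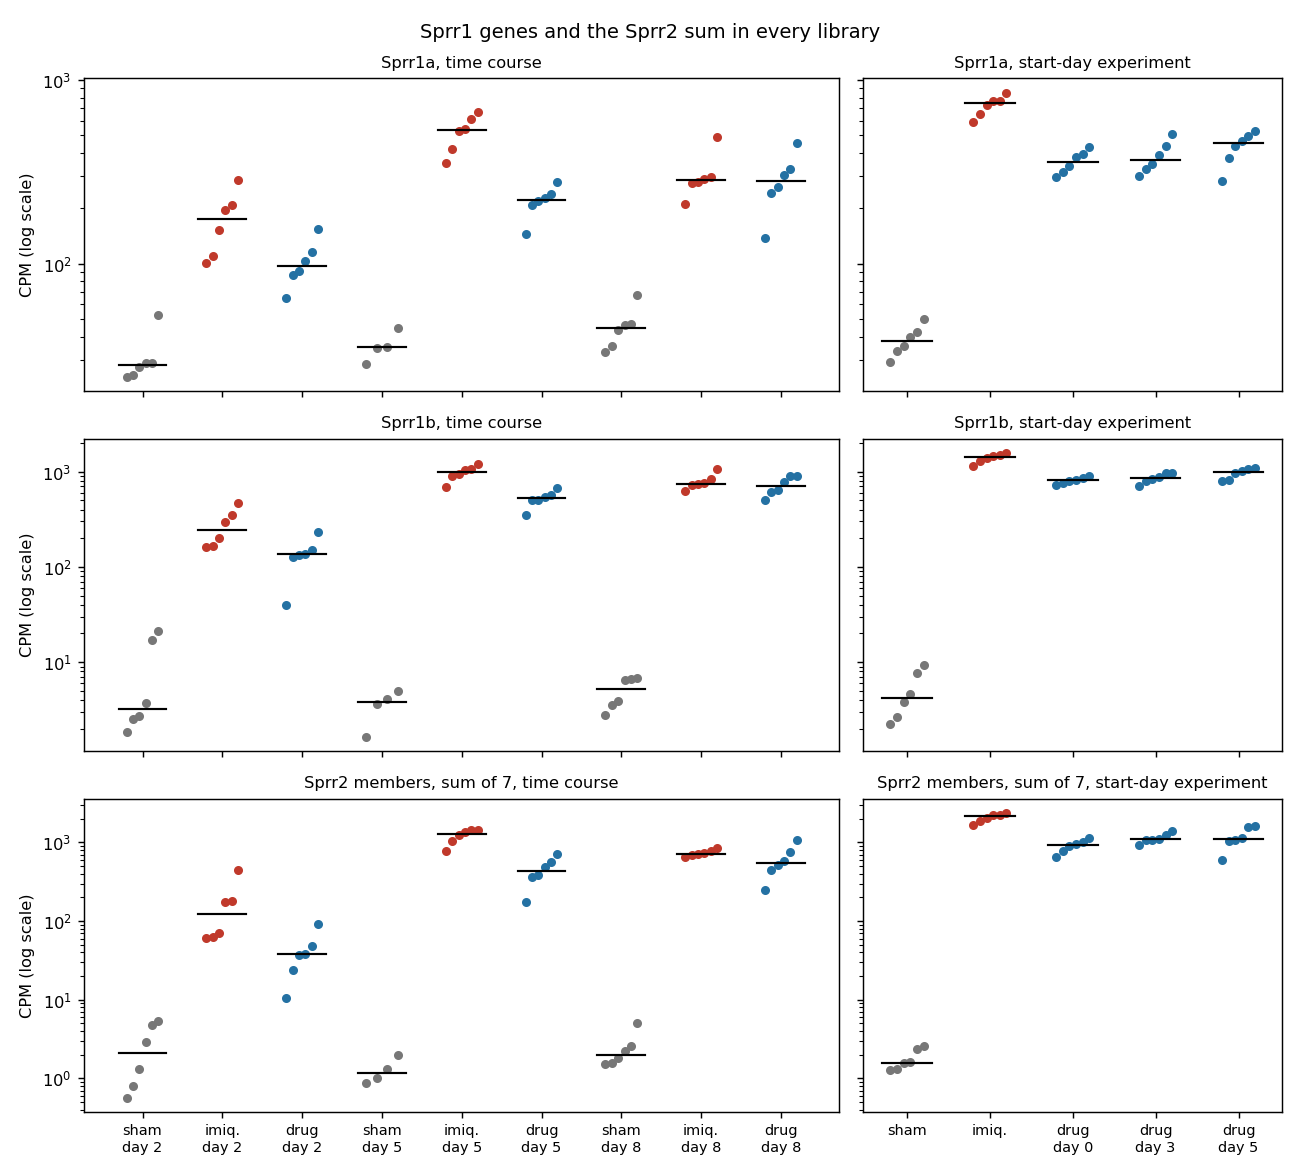
CPM on a log scale for Sprr1a, Sprr1b and the sum of the 7 Sprr2 members, 1 point per library, with black bars at the group medians, in sham (grey), imiquimod (red) and drug with imiquimod ears (blue). Every red point lies above the grey points of its day, and at day 5 the 6 drug libraries lie at 175 to 704 CPM for the Sprr2 sum against 769.9 to 1424 CPM without it.

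Single Sprr2 members spanned log2 fold changes of 4.82 (Sprr2i) to 7.11 (Sprr2g) at day 2. At day 8 they spanned 7.12 (Sprr2g) to 9.87 (Sprr2b), and in the start-day experiment 8.61 (Sprr2h) to 12.69 (Sprr2b). Sprr2d had the highest level of the 7, with 0.114 to 0.377 CPM in sham ears at day 5 and 376 to 657 CPM (median 591) in imiquimod ears. Sprr2h followed with 0.280 to 0.922 CPM and 147 to 231 CPM (median 207). Both were thus low in every sham library and high in every imiquimod library of that day. Sprr2f had 0 counts in all 4 sham libraries at day 5 and 5927 counts in the 6 imiquimod libraries, so its level was at least 1614-fold higher, taking 3 counts over the sham group as the floor. Sprr2b had 3 counts in the sham group against 13779, a ratio of 3751 with a 95% counting interval of 1283 to 18192, which covers counting error only. Of the other members at day 5, Sprr2e reached a median of 127 CPM, Sprr2i 121 CPM, and Sprr2g 71.1 CPM in imiquimod ears, from sham medians of 0.0589, 0.225 and 0.143 CPM.

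**Figure D2:**
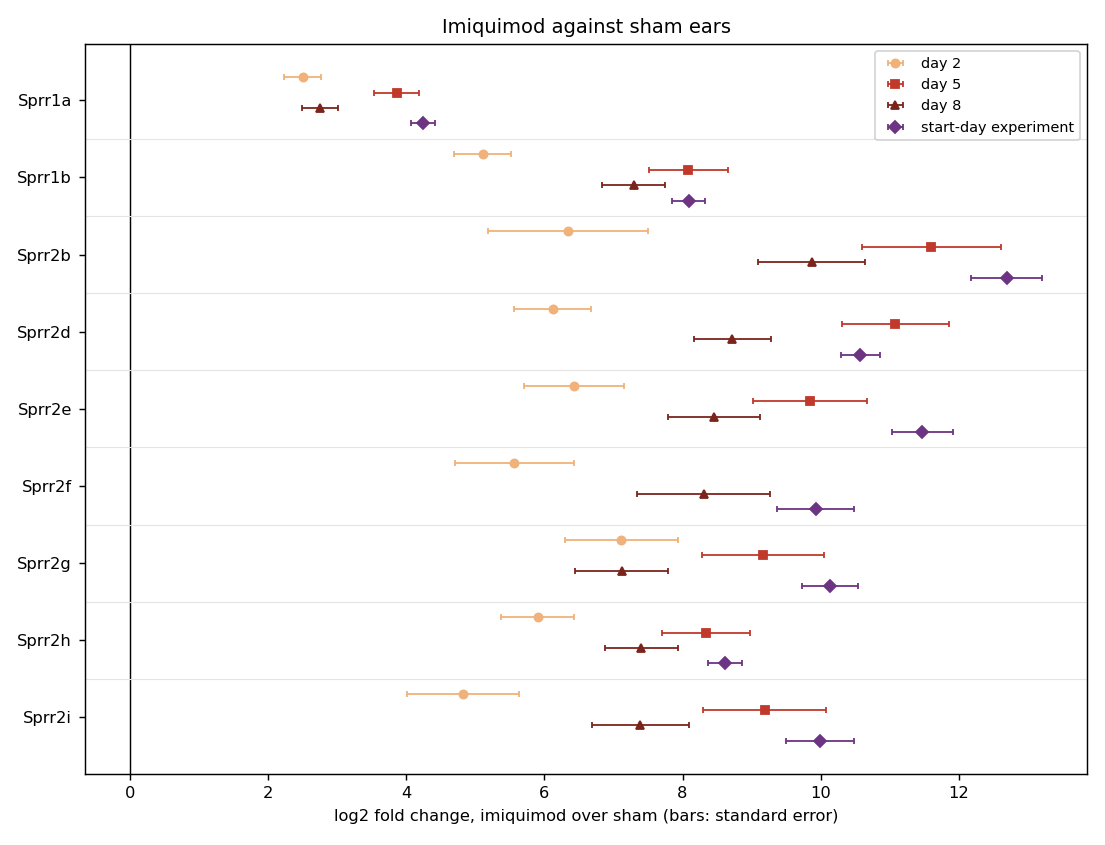
Log2 fold change of imiquimod over sham ears (horizontal axis, bars are standard errors) for 9 tested members at day 2, 5 and 8 and in the start-day experiment. Sprr1a has the smallest change in all 4 comparisons, from 2.50 to 4.24, and the Sprr2 members lie between 4.82 and 12.69. The day 5 point of Sprr2f is left out because its sham libraries were at 0.

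Sprr3, the SPRR member known mainly from internal stratified epithelia such as oesophagus, was near absent in ear skin. It had 27 counts over the whole time course and 25 over the start-day experiment. In the time course 15 of them fell in imiquimod ears at day 5, 8 in drug ears at day 5, 3 in imiquimod ears at day 8 and 1 in drug ears at day 8, with 0 in sham ears and in all groups at day 2. Of the start-day counts, 17 fell in imiquimod ears, 6, 0 and 2 in ears with the drug from day 0, 3 and 5, and 0 in sham. All counts of this gene thus came from ears that had received imiquimod. The level in imiquimod ears was at least 4.08-fold higher than in sham at day 5 and at least 5.73-fold higher in the start-day experiment, taking 3 counts over the sham group as the floor. With the drug from day 5 the ratio to imiquimod alone was 0.124 (95% counting interval 0.0139 to 0.521).

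Day 5 was the highest of the 3 days for each Sprr1 and Sprr2 member by median in imiquimod ears. From day 2 to day 5, 9 of 9 members rose (22.6% of all tested genes were called higher), by 1.57 ± 0.25 for Sprr1a, 1.83 ± 0.34 for Sprr1b and 2.86 ± 0.42 for the Sprr2 sum on the log2 scale. Sprr2b, at 0.426 to 22.997 CPM (median 2.09) on day 2 and 51.4 to 149.5 CPM (median 117) on day 5, rose by 4.58 ± 0.47, and Sprr2h by 2.02 ± 0.34. The libraries of both days did not overlap for 8 of 9 members, Sprr2g being the exception. From day 5 to day 8 only Sprr1a was called lower (-0.76 ± 0.24, adjusted p = 0.031, edgeR), among 5.88% of all genes called lower. This call was lost when 1 of 7 single libraries was left out (replicates 25, 28 or 30 of day 5, or 44, 46, 47 or 48 of day 8). The Sprr2 sum differed by -0.72 ± 0.39 between these days (adjusted p = 0.24), and in a fit of the compared groups alone it was called (adjusted p = 0.0057) with 7 of 9 members. The share of all genes called in that fit was not counted. Over the alternatives other than leaving out single libraries, which include all Sprr2 rows in the sum, the change lay between -0.74 and -0.11. Outside the list, Sprr2a1 changed by -0.11 ± 0.34 (adjusted p = 0.88), Sprr2a2 by 0.04 ± 0.52 (adjusted p = 0.98) and Sprr2a3 by 0.06 ± 0.38 (adjusted p = 0.95, edgeR). In sham ears, 0 of 9 members were called between day 2 and day 5 by edgeR (0.213% of all genes) with 1 at an unadjusted p under 0.05 and 1 by DESeq2. Between day 5 and day 8 in sham ears 0 of 9 were called (1.57%), with 0 at an unadjusted p under 0.05 and 0 by DESeq2.

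The imiquimod effect itself was tested for differences among the 3 days. It differed for 3 of 9 members, Sprr1a (adjusted p = 0.0099), Sprr1b (adjusted p = 0.00032) and Sprr2d (adjusted p = 0.011), where 33.4% of all genes were called (edgeR). The sums of Sprr1 and of Sprr2 also differed among days, with adjusted p of 0.0017 and 0.0034. DESeq2 called 8 of 9 members in the same test, and 5 were called without imiquimod replicates 9 and 11 of day 2. The share of all genes called was not counted for these fits.

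Per length of transcript, the order of the members changed between sham and imiquimod ears. In sham ears of the start-day experiment Sprr1a stood first at a median of 46.8 CPM per kb, above Sprr1b at 5.09 CPM per kb without overlap, and the Sprr2 members were all at or below 0.968 CPM per kb. In imiquimod ears Sprr1b was first at 1713 CPM per kb and Sprr2d second at 1338, and the libraries of these neighbours overlapped. Sprr1a followed at 926 CPM per kb, below Sprr2d without overlap. Sprr2h (379), Sprr2e (356), Sprr2i (348), Sprr2b (297) and Sprr2g (228) formed a run in which each neighbour overlapped the next. Sprr2f at 103 CPM per kb and Sprr3 at 0.0782 CPM per kb closed the order, each apart from the member above it. At day 2 of the time course the order in imiquimod ears began with Sprr1b (297), Sprr1a (216), Sprr2d (60.1) and Sprr2h (53.9) and ended with Sprr2i (6.09) and Sprr2b (2.67), and each neighbour overlapped the next from Sprr1b down to Sprr2b.

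The make-up of the Sprr2 counts shifted with time. Sprr2h made up 22.3% to 36.3% (median 34.5%) of the counts of the 7 Sprr2 members at day 2, 15.02% to 19.1% (median 15.9%) at day 5 and 13.5% to 16.1% (median 14.6%) at day 8 in imiquimod ears. Sprr2b moved the other way, from 0.706% to 5.10% (median 1.57%) at day 2 to 6.68% to 10.5% (median 9.48%) at day 5. Sprr2d rose from a median of 36.1% at day 2 to 46.3% at day 5 and 50.8% at day 8. The day 2 and day 5 ranges did not overlap for any of these 3 members. Sprr1a and Sprr1b together held a median of 94.8% to 97.3% of all member counts in the sham groups, 77.7% in imiquimod ears at day 2, 54.7% at day 5 and 60.004% at day 8. Member counts leave out Sprr2a1, Sprr2a2 and Sprr2a3, which held a median of 93.6% of all Sprr2 counts in sham ears at day 2. In imiquimod ears they held 77.5% at day 5 and 85.4% at day 8. All Sprr2 rows were a median of 0.548% of all counts at day 5, against 0.694% for all Sprr1 and Sprr2 rows. At day 8 these values were 0.490% and 0.592%. The share of Sprr1 among all Sprr1 and Sprr2 counts was thus lower than among member counts. All these shares are descriptions and were not tested.

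**Figure D3:**
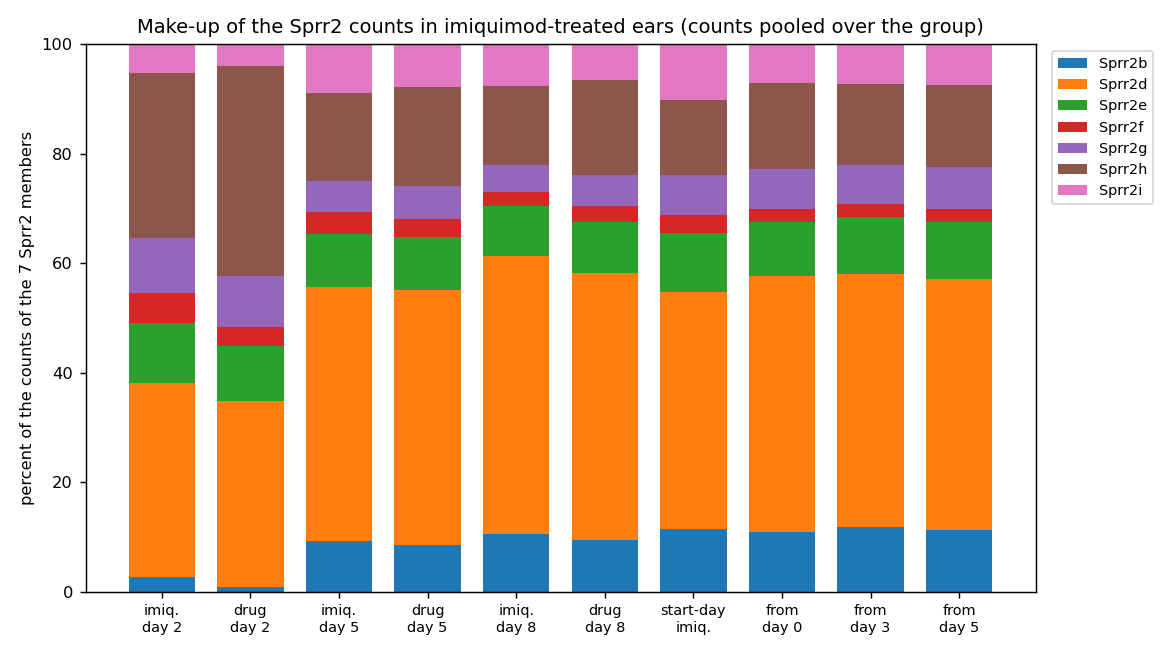
Percent of the pooled counts of the 7 Sprr2 members that each member holds, in every group that received imiquimod. Sprr2d is the largest part in all groups but drug at day 2, and the Sprr2h part falls from 30.1% to 16.1% between day 2 and day 5 of imiquimod.

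Members were lower with the drug at day 5 of the time course. They were also called lower at day 2, but not without imiquimod replicates 9 and 11. At day 5, Sprr1a was 353 to 664 CPM with imiquimod alone and 144.7 to 279 CPM (median 222) with the drug, and Sprr1b was 690.3 to 1202 CPM and 353 to 679.9 CPM (median 525). The Sprr2 sum was 769.9 to 1424 CPM without and 175 to 704 CPM (median 431) with the drug. For 8 of the 9 members, all but Sprr2b, each drug library lay below each imiquimod library. All 9 were called lower, where 17.2% of all tested genes were, by -1.25 ± 0.24 for Sprr1a (adjusted p = 8.8e-05) and -0.88 ± 0.33 for Sprr1b (adjusted p = 0.035, edgeR). The Sprr2 members ranged from -1.73 ± 0.48 (Sprr2f) to -1.26 ± 0.33 (Sprr2h), and the Sprr2 sum changed by -1.44 ± 0.40 (adjusted p = 0.0038). Sprr2d fell from 376 to 657 CPM to 87.0 to 363 CPM (median 181), and Sprr2i from 59.9 to 157 CPM to 10.05 to 47.6 CPM (median 38.4).

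At day 2 the drug groups overlapped the imiquimod groups for all 9 members. The Sprr2 sum was 10.4 to 92.7 CPM (median 37.8) with the drug against 60.3 to 451 CPM (median 122). Sprr1a was 65.2 to 153 CPM (median 97.4) against 101 to 284 CPM, and Sprr1b 39.7 to 234 CPM (median 136) against 161 to 470.3 CPM. All 9 were called lower (9.61% of all genes), by -3.71 ± 0.84 for Sprr2b, by -2.65 to -1.59 for the other Sprr2 members, -0.99 ± 0.34 for Sprr1b (adjusted p = 0.037) and -0.77 ± 0.25 for Sprr1a (adjusted p = 0.024). The Sprr2 sum changed by -1.997 ± 0.42 (adjusted p = 0.0015) and the Sprr1 sum by -0.90 ± 0.25 (adjusted p = 0.010). Without imiquimod replicates 9 and 11 none of the 9 was called and the Sprr2 sum changed by -1.15 (adjusted p = 0.15). Without replicate 11 alone 6 members were called and without replicate 9 alone 7. In a fit of the compared groups alone 0 of 9 were called, and the Sprr2 sum changed by -2.01 (adjusted p = 0.086). The share of all genes called was not counted in any of these refits, so the lost calls may not be particular to the members.

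At day 8 no member was called by edgeR (0 of 9, where 0.335% of all genes were called lower), with 0 at an unadjusted p under 0.05 and 0 by DESeq2. The Sprr2 sum was 247 to 1069 CPM (median 548) with the drug, a range that enclosed the 658 to 843 CPM of imiquimod alone, and changed by -0.28 ± 0.39 (adjusted p = 0.81). Sprr1a had 138 to 455 CPM (median 282) with the drug and Sprr1b 509 to 899 CPM (median 709), with changes of -0.09 ± 0.24 and -0.14 ± 0.33. The difference of the drug effect among the 3 days was called for Sprr2b alone (adjusted p = 0.045), among 7.99% of all genes. For the Sprr2 sum the adjusted p was 0.091, 8 of 9 members were under 0.05 without adjustment, and DESeq2 called 2. Shares of all genes were not counted for either. Leaving out single libraries moved the number of members called by edgeR between 0 and 7. It was 7 without replicate 17 or 51 of the drug groups or replicate 10 of the imiquimod group.

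In the start-day experiment members were lower with the drug from each of the 3 start days. The Sprr2 sum was 1667 to 2341 CPM with imiquimod alone, 648 to 1135 CPM (median 925) with the drug from day 0, 929 to 1376 CPM (median 1093) from day 3 and 602 to 1597 CPM (median 1108) from day 5. No drug library reached the lowest imiquimod library. Sprr1a was 593 to 851 CPM (median 746) without the drug and 295 to 432 CPM, 301 to 504 CPM and 282 to 527 CPM with it, in order of start day. Sprr1b was 1147 to 1572 CPM (median 1422) without it and 729.7 to 910.0 CPM, 701 to 974 CPM and 794 to 1086 CPM with it. For both genes the drug libraries lay below the imiquimod libraries at each start day. The Sprr2 sum changed by -1.18 ± 0.17 (adjusted p = 8.4e-06), -0.87 ± 0.17 (adjusted p = 0.00032) and -0.82 ± 0.17 (adjusted p = 0.00085, edgeR). Sprr1a changed by -1.02 ± 0.15, -0.92 ± 0.15 and -0.76 ± 0.15, and Sprr1b by -0.78 ± 0.16, -0.70 ± 0.16 and -0.54 ± 0.16.

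All 9 tested members were called lower with the drug from day 0, against 16.9% of all genes, and all 9 lay below imiquimod alone without overlap. From day 3 all 9 were called (16.4%), with overlap for Sprr2e, and from day 5 all 9 (12.7%), with overlap for Sprr2b, Sprr2e, Sprr2g and Sprr2h. Sprr2i had the largest change of the 9 at each start, -1.71 ± 0.26, -1.39 ± 0.25 and -1.28 ± 0.25, from 154 to 265 CPM to 46.1 to 88.7 CPM, 54.7 to 127 CPM and 29.5 to 144 CPM. The 3 comparisons share their imiquimod libraries. Between a start at day 5 and at day 0, 0 of 9 members were called by edgeR (0.0217% of all genes), with 3 at an unadjusted p under 0.05 and 0 by DESeq2, and the Sprr2 sum differed by 0.37 ± 0.17 (adjusted p = 0.39). The test over the 3 start days called 0 of 9 (0.00542%), with 0 at an unadjusted p under 0.05 and 0 by DESeq2 (adjusted p of the Sprr2 sum 0.62). The time course held a comparison at day 8 with like labels, in which the Sprr2 sum changed by -0.28 ± 0.39 against -1.18 ± 0.17 here. Whether these changes differ was not tested, and imiquimod alone stood at a median of 719 CPM in the former and 2136 CPM in the latter, on separate scales.

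**Figure D4:**
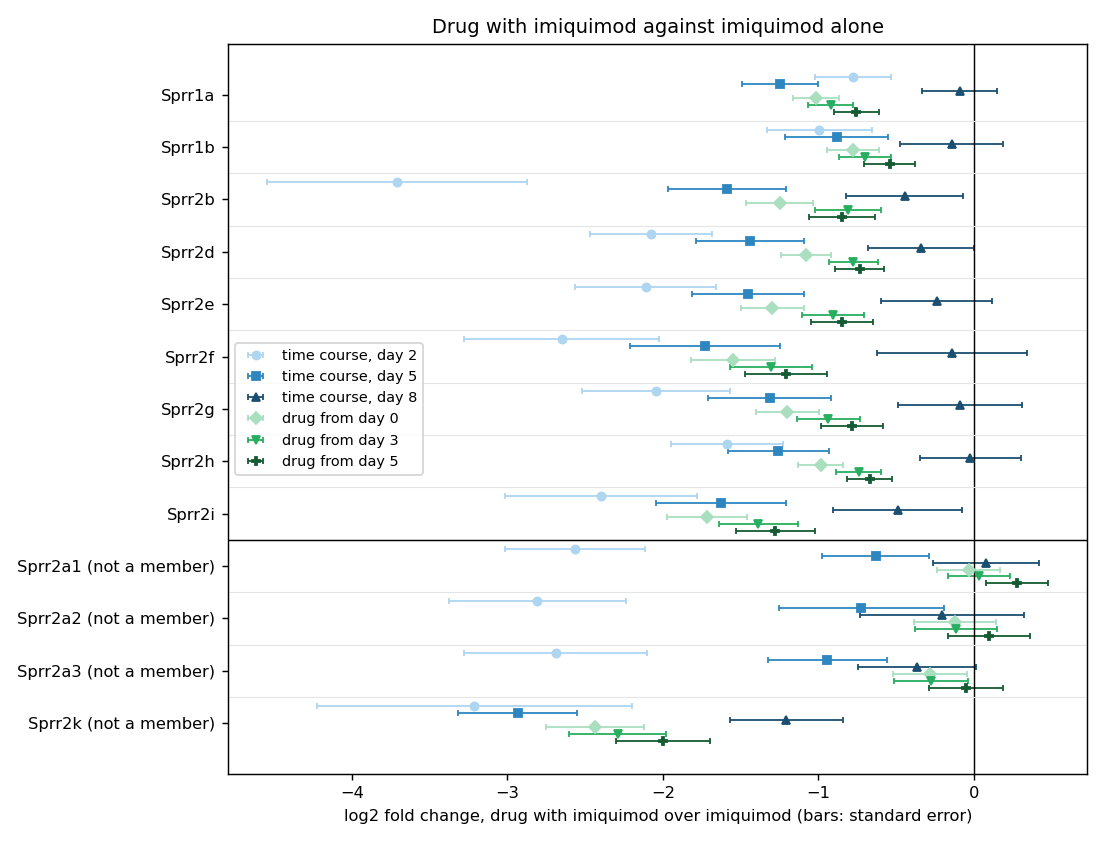
Log2 fold change of drug with imiquimod over imiquimod alone (horizontal axis, bars are standard errors) for 9 members and, below the line, 4 Sprr2 copies that are no members, in 6 comparisons. The day 8 values of the members lie between -0.49 and -0.02, and all other member values lie at or below -0.54.

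Under the drug the members remained above sham. They were called higher than sham for 7 of 9 members at day 2 (24.2% of all genes), 9 of 9 at day 5 (31.1%) and 9 of 9 at day 8 (34.2%). For the start-day groups, 9 of 9 were higher from day 0 (36.7%), day 3 (36.6%) and day 5 (37.4%). The 2 not called at day 2 were Sprr2b (2.63 ± 2.02, adjusted p = 0.30) and Sprr2i (2.42 ± 1.04, adjusted p = 0.056). As a share of the rise of group means over sham, drug ears kept 23.8% for the Sprr2 sum at day 2, 36.7% at day 5 and 82.1% at day 8. For the Sprr1 sum the shares were 48.97%, 48.7% and 91.1%. In the start-day experiment the Sprr2 sum kept 43.9%, 54.8% and 56.8% and the Sprr1 sum 54.4%, 57.7% and 64.8% for starts at day 0, 3 and 5. Sprr2i kept the least of the 9, with 30.4%, 38.2% and 41.2%. Outside the list, the sum of Sprr2a1, Sprr2a2 and Sprr2a3 kept 6.73% at day 2, 60.6% at day 5 and 87.4% at day 8. For starts at day 0, 3 and 5 this sum kept 91.8%, 92.5% and 107.2%. With the drug at day 2, Sprr2a1 was called above sham (adjusted p = 0.045, edgeR). Sprr2a2 (adjusted p = 0.25) and Sprr2a3 (adjusted p = 0.61) were not.

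The balance between Sprr1b and Sprr1a, which share no 31-base word, stood higher in imiquimod than in sham libraries at each day, and its medians with the drug lay above imiquimod alone at some times and below it at others. Sham libraries at day 5 held 0.0573 to 0.116 counts of Sprr1b per count of Sprr1a, and imiquimod libraries 1.74 to 2.12 (median 1.86). With the drug at day 5 the ratio was 2.23 to 2.50 (median 2.43), above all imiquimod libraries of that day. At day 2 the median was lower with the drug (1.36 against 1.59) and at day 8 as well (2.52 against 2.66), and at both days the libraries overlapped. The ratio in the start-day experiment was 1.77 to 2.06 (median 1.96) with imiquimod alone and 1.90 to 2.54 (median 2.30) with the drug from day 0, which overlap. Starts at day 3 and day 5 had medians of 2.20 and 2.19, also with overlap. Among the Sprr2 members, the share of Sprr2i was 9.26% to 11.3% in imiquimod ears of the start-day experiment and 5.88% to 8.67% with the drug from day 0. Neither ratio nor share was tested.

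**Figure D5:**
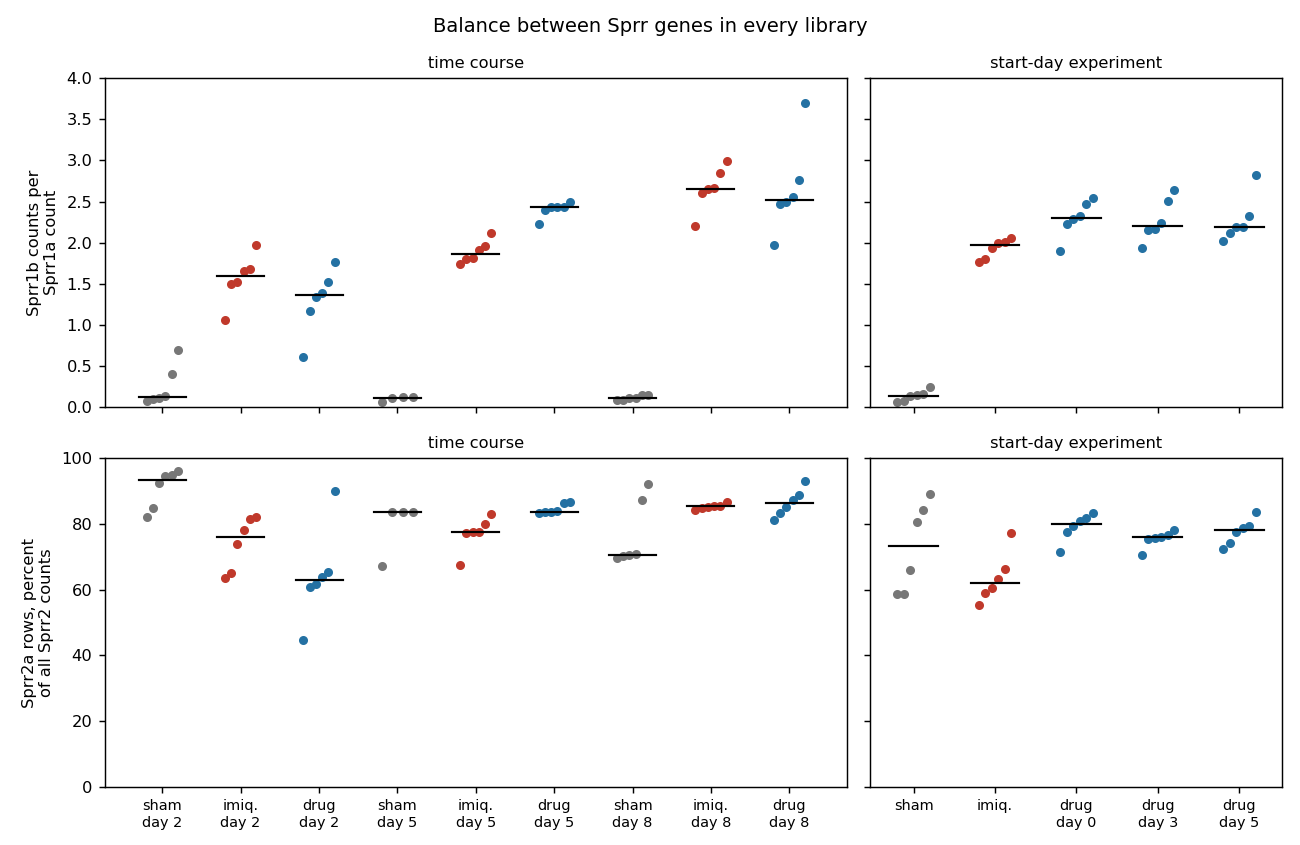
Counts of Sprr1b per count of Sprr1a (top) and the percent of all Sprr2 counts held by Sprr2a1, Sprr2a2 and Sprr2a3 (bottom), 1 point per library with bars at the medians. The ratio is 0.695 and 0.398 in sham libraries of day 2 and at or below 0.235 in the other sham libraries, it is 0.609 or more in every imiquimod-treated library, and at day 5 the drug libraries (2.23 to 2.50) lie above the imiquimod libraries (1.74 to 2.12).

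The 7 other Sprr rows included 3 copies, Sprr2a1, Sprr2a2 and Sprr2a3, that share 65.3% to 100% of their 31-base words and hold most Sprr2 counts. In imiquimod ears of the start-day experiment they held 55.3% to 77.3% (median 62.0%) of all Sprr2 counts, and with the drug from day 0 71.5% to 83.3% (median 80.2%). Their summed level was 3082 to 5300.1 CPM (median 4588) with imiquimod at day 5 and 912 to 4742 CPM (median 2220.1) with the drug, so the libraries overlapped. It was, in the start-day experiment, 2984 to 5828 CPM (median 3591) with imiquimod and 2610.2 to 4167 CPM (median 3535) with the drug from day 0. Sprr2a2, which held nearly all of it, changed by -2.81 ± 0.57 with the drug at day 2 (adjusted p = 0.0013), -0.72 ± 0.53 at day 5 (adjusted p = 0.30) and -0.12 ± 0.26 with the drug from day 0 (adjusted p = 0.76, edgeR). The day 2 change of Sprr2a2 was not refitted without imiquimod replicates 9 and 11, without which no member was called at that day. With all Sprr2 rows in the sum, the drug effect was -0.86 at day 5 (adjusted p = 0.18) and -0.42, -0.34 and -0.17 for the 3 start days (adjusted p = 0.15, 0.26 and 0.64). Of the 7 rows, 6 were higher with imiquimod at day 5, all but Sprr4, and with the drug 3 were lower (Sprr2k and the pseudogene rows Sprr2c-ps and Sprr2j-ps) and 1 higher, both at day 5 and from day 0. Sprr2k, another copy chosen after its values were seen, changed by -2.93 ± 0.38 at day 5 and -2.44 ± 0.31 with the drug from day 0. Sprr4, a distant relative at 0.285 to 4.29 CPM in all groups and likewise chosen after its values were seen, was higher with the drug, by 1.19 ± 0.34 at day 5 (adjusted p = 0.0045) and 1.43 ± 0.28 from day 0 (adjusted p = 0.00019). Whether the members differ from Sprr2a in their response was not tested.

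Other genes of the cornified envelope changed in both directions at day 5 of the time course, and mainly upwards with imiquimod in the start-day experiment. Of a list of 40 envelope and epidermal differentiation complex genes, all tested, 19 were higher and 17 lower with imiquimod at day 5, when 34.6% and 35.9% of all genes were. The median log2 fold change of the list was -0.18 against -0.04 over all genes. The 3 of smallest adjusted p were Pglyrp3, a peptidoglycan recognition protein (3.01 ± 0.18), Tgm3, a transglutaminase that cross-links envelope proteins (3.08 ± 0.19), and Rptn, repetin (6.01 ± 0.42). In the start-day experiment 32 were higher and 2 lower with imiquimod (38.1% and 39.9% of all genes), with a median of 1.18 against -0.02. With the drug at day 5, 23 were higher and 8 lower (18.3% and 17.2% of all genes; median 0.44 against 0.02), led by Lor, loricrin, the main envelope protein of normal epidermis (1.37 ± 0.24, adjusted p = 2.0e-05), Tgm3 (-0.82 ± 0.15) and Lce1c, a late envelope protein (1.26 ± 0.26). With the drug from day 0, 19 were higher and 12 lower (18.2% and 16.9%; median 0.14 against 0.01), and the leading genes were Tgm3 (-0.63 ± 0.06), Pglyrp3 (-0.60 ± 0.09) and Tchh, trichohyalin (-0.63 ± 0.10).

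Of 30 transcription factors known to act at Sprr or other epidermal differentiation genes, 21 were higher and 6 lower with imiquimod at day 5 (34.6% and 35.9% of all genes; median log2 fold change 0.95 against -0.04 over all genes). Among the leading genes were Nfkbiz, an NF-kB cofactor induced by interleukin 17 (2.33 ± 0.12), and the epithelial ETS factor Ehf (2.91 ± 0.17). In the start-day experiment 24 were higher and 4 lower (38.1% and 39.9% of all genes; median 0.97 against -0.02), led by Ehf (3.68 ± 0.08), Elf5 (4.14 ± 0.12) and Stat3 (1.34 ± 0.05). With the drug at day 5, 5 were higher and 13 lower (18.3% and 17.2% of all genes; median -0.13 against 0.02), led by the POU factor Pou2f3 (0.74 ± 0.10), Ets1 (-0.54 ± 0.08) and Batf (-1.68 ± 0.27). With the drug from day 0, 6 were higher and 12 lower (18.2% and 16.9% of all genes; median -0.10 against 0.01), led by Pou2f3 (0.52 ± 0.08), Elf5 (-0.50 ± 0.09) and Ets1 (-0.43 ± 0.08). Among subunits of AP-1, picked after their values were seen, Fosl1 (3.60 ± 0.64) and Junb (1.80 ± 0.17) were higher with imiquimod at day 5 and Jun was lower (-0.30 ± 0.14, adjusted p = 0.046). Pou2f3 was also lower with imiquimod at day 5 (-1.21 ± 0.11).

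The genes whose log2 CPM followed the Sprr2 sum most closely over the 52 time-course libraries, among 12975 genes, were S100a9 (Pearson r 0.992), S100a8 (0.990), which encode the calprotectin subunits, the cystine transporter gene Slc7a11 (0.990) and Gjb6, connexin 30 (0.989). Over the 30 start-day libraries the same correlations were 0.997, 0.997, 0.994 and 0.998. Ranked by Spearman correlation, the first 5 were S100a9, Krt16, S100a8, Stfa1 and Cstdc5. All libraries share the contrast between sham and treated ears, so these values are a description. Sprr3, with 27 counts, correlated at most at 0.645 with any of these genes in the time course (Defb1, a beta defensin), and its 5 closest genes were Defb1, Ell, Hmga2, Plcd1 and Rnf217.

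Levels of cell markers are set beside these changes. The 4 keratins of activated keratinocytes (Krt6a, Krt6b, Krt16 and Krt17) summed to 249 to 295 CPM in sham ears, 20941 to 29613 CPM in imiquimod ears and 4433 to 16936 CPM with the drug at day 5. The 8 neutrophil markers summed to 18.4 to 26.4 CPM in sham, with Ly6g at 0, to 5015 to 7427 CPM with imiquimod and to 343 to 4547 CPM with the drug. They include S100a8 and S100a9, which followed the Sprr2 sum most closely by Pearson correlation. The sum was not taken without them, so it is not read as neutrophil content. Basal keratinocyte markers were 17789 to 18903 CPM, 28399.7 to 32460.3 CPM and 24709.9 to 30389 CPM in the same groups, and suprabasal markers were 24130 to 34943 CPM, 21674 to 36531 CPM and 29783 to 62197 CPM. These sums do not stand for every marker. With imiquimod at day 5, 4 of the 9 basal markers were called higher and 4 lower by edgeR. Of the 9 suprabasal markers 3 were higher and 6 lower (34.6% and 35.9% of all genes). With the drug at day 5, 7 of the 9 suprabasal markers were called higher and 0 lower by edgeR (18.3% and 17.2% of all genes). This direction was opposite to that of the Sprr members. Per CPM of basal markers, the Sprr2 sum was 0.0628 to 0.0930 with imiquimod and 0.0270 to 0.0448 with the drug from day 0 in the start-day experiment, without overlap. With the drug from day 3 it was 0.0400 to 0.0604, below imiquimod alone, and from day 5 it was 0.0281 to 0.0662, which overlapped. In the time course drug and imiquimod libraries overlapped at day 2 (0.000416 to 0.00384 against 0.00272 to 0.0176) and at day 8 (0.0100 to 0.0380 against 0.0233 to 0.0314), and at day 5 they did not (0.00709 to 0.0232 against 0.0237 to 0.0465). The part of these cell markers in the Sprr changes was not tested.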

How the data were processed

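RNA was measured in 82 libraries of ear skin, made with the Tecan Universal Plus mRNA kit per the labels' protocols. The authors deposited estimated counts (expected counts) for each gene, made with salmon per the names of the deposited tables and on GRCm39 per the submitters' processing notes. No source used here gives the salmon version, annotation or strand setting. All columns matched a sample's title, with 0 left over, and no libraries of a group were closer than sampling noise allows (lowest chi-square per gene 4.13).

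Counts were rounded and each experiment was fitted alone with edgeR 4.0.16 (R 4.3.3): filterByExpr, TMM factors, robust quasi-likelihood tests, all groups in 1 fit, Benjamini-Hochberg adjustment over all tested genes and a threshold of 0.05. The sums of the 7 Sprr2 members and of Sprr1a with Sprr1b were fitted in place of their members. CPM used TMM-scaled library sizes, log2 CPM a prior count of 2, and CPM per kb the longest listed transcript. At these depths 3 counts, the floor used for groups at 0, are near the limit of detection, and counting intervals are exact 95% intervals that cover counting error only. Simulated counts with known fold changes were used to test the fit. The tools also included DESeq2 1.42.0, numpy 2.4.6, pandas 2.3.3, scipy 1.17.1 and matplotlib 3.10.9.

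The members, gene lists and alternatives were chosen with earlier results of these data known. Named were all members, the 5 genes most like the Sprr2 sum and Sprr3 by correlation (mean log2 CPM of at least 1), and up to 3 called genes per list by smallest adjusted p. A few genes named by these rules are left out of the text. Others are said to be chosen after their values were seen. Alternatives were DESeq2, RLE factors, library totals, no filter or a filter of 1 CPM in 4 libraries, the compared groups alone, all Sprr2 rows in the sum, leaving out day 2 imiquimod replicates 9 and 11, and leaving out each library in turn.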

Additional observations from a re-analysis of the deposited data

Results flagged for a closer look

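A library was singled out where its gap to the next was a large part of its group's range. This was so for 19 of 160 groups of values tested. For independent, normally distributed values chance gives about 1 in 20. These groups include levels near 0 and sums beside their own members, so 19 cannot be set against that rate. Replicate 11 of imiquimod at day 2 was the highest of its group for Sprr2b (22.997 CPM), Sprr2d (172 CPM), Sprr2e (49.6 CPM), Sprr2i (35.2 CPM) and the Sprr2 sum (451 CPM). Replicate 17 of the drug at day 2 was highest for Sprr2f (4.98 CPM), Sprr2g (11.4 CPM) and Sprr2i (4.55 CPM). Among sham ears at day 2, replicate 5 was highest for Sprr1a (52.7 CPM), Sprr2f (0.588 CPM), Sprr2h (2.83 CPM) and the Sprr1 sum (73.7 CPM), and replicate 6 for Sprr2b (0.284 CPM). Replicate 41 of sham at day 8 was highest for Sprr2h (1.37 CPM) and the Sprr2 sum (5.12 CPM). Replicate 45 of imiquimod at day 8 had 491 CPM of Sprr1a. Sprr3 stood out in replicate 51 of the drug at day 8 (0.0530 CPM) and replicate 25 of the drug from day 0 (0.142 CPM), and Sprr2g in replicate 6 of the start-day sham group (0.348 CPM).

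The imiquimod effect differed among days for Sprr1a (adjusted p = 0.0099), Sprr1b (adjusted p = 0.00032), Sprr2d (adjusted p = 0.011), the Sprr2 sum (adjusted p = 0.0034) and the Sprr1 sum (adjusted p = 0.0017, edgeR). The drug effect differed among days for Sprr2b (adjusted p = 0.045).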

How the results depend on the processing

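No log2 fold change that was called in the main fit or in an alternative changed direction between them. Changes of sign among uncalled values were not counted. Values for the Sprr2 sum and counts of members called were compared with the main fit. Over the alternatives other than leaving out single libraries, 304 stayed the same, 7 gained and 11 lost calls. When each library was left out in turn the numbers were 630, 8 and 26. A count of members that moved by a modest factor was entered as the same. An example is the fall from 9 to 6 for the drug at day 2 when 1 library was left out. The drug effect at day 2 on the Sprr2 sum was -1.15 (adjusted p = 0.15, edgeR) without imiquimod replicates 9 and 11 and -2.01 (adjusted p = 0.086) in a fit of the compared groups alone, with 0 members called in both. With all Sprr2 rows in the sum the drug effect was -0.86 at day 5, and -0.42, -0.34 and -0.17 for starts at day 0, 3 and 5, all uncalled. From day 5 to day 8 of imiquimod the Sprr2 sum was -0.72 (adjusted p = 0.0057, edgeR) in the compared groups alone. There 7 members were called, against 0 with no filter and 0 to 1 when single libraries were left out. Over the alternatives other than leaving out single libraries the change of the sum lay between -0.74 and -0.11. Between sham at day 5 and day 2 DESeq2 called 1 member. For the imiquimod effect among days DESeq2 called 8 members, and 5 were called without replicates 9 and 11. Shares of all genes called were not counted for any alternative. For the drug effect among days the count was 2 with DESeq2, 0 with no filter, 2 with a 1 CPM filter and 0 in the compared groups alone. Leaving out single libraries gave 0 to 7 members and an adjusted p of the Sprr2 sum of 0.032 (without drug day 2 replicate 17) to 0.202. The causes were not tested. Scaling by library totals moved the median log2 fold change of all genes to as far as -0.26 and changed no call of a single member. No paired analysis was possible because replicate numbers are shared only between the separate experiments. Sham levels of the Sprr2 members rest on few counts, which limits the size of their fold changes.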
